A study of Rattus norvegicus with 12 samples.

Results

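Ptgs1 and Ptgs2 encode the cyclooxygenases, the enzymes that commit arachidonic acid to prostaglandin synthesis. They were taken by their Ensembl identifiers, ENSRNOG00000007415 for Ptgs1 and ENSRNOG00000002525 for Ptgs2, and are 2 of the 29516 genes listed in each file. The RNA came from newborn rat preoptic area, part of the forebrain that develops differently in males and females. Females and males received either vehicle, which was saline with 0.1% of a solvent the labels spell DNMSO, or zebularine, an analogue of cytidine that blocks DNA methyltransferases. Doses were given on postnatal days 0 and 1 and the tissue was collected on postnatal day 2. Each combination of sex and treatment has 3 libraries, 12 in all. Strain, zebularine dose and pooling of animals are not given in the labels, nor do they state whether replicates are different animals. The p-values therefore reflect the scatter of these libraries, part of which may be technical.

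Cyclooxygenases turn arachidonic acid, released from membranes by phospholipase A2, into prostaglandin H2, which terminal synthases convert to prostaglandin E2 and other prostanoids that act on G protein-coupled receptors. Ptgs1 (COX-1) is regarded as the constitutive form and Ptgs2 (COX-2) as the inducible form, an immediate early gene in neurons. In the newborn rat preoptic area, estradiol made from testicular testosterone raises COX-2 and prostaglandin E2, and prostaglandin E2 increases dendritic spines and promotes later male sexual behaviour. Zebularine lowers DNA methylation, which lies mainly on CpG dinucleotides, so the comparisons address whether cyclooxygenase expression differed by sex and by treatment in this tissue.

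The 250 bases before each start site are printed to show how many such CpG dinucleotides lie ahead of each gene, since they are the sites that the inhibited enzymes modify. CpG dinucleotides are in capitals, the sequences run 5′ to 3′ on the plus strand, and both come from RefSeq annotation of build GRCr8. The Ptgs1 window is chr3:39981169-39981418 and the Ptgs2 window chr13:64713813-64714062.
Ptgs1: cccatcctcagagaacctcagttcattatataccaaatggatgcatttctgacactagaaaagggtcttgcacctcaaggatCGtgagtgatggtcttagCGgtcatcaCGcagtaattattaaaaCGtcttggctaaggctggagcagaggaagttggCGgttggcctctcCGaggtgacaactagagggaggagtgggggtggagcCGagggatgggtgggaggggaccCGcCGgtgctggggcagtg
Ptgs2: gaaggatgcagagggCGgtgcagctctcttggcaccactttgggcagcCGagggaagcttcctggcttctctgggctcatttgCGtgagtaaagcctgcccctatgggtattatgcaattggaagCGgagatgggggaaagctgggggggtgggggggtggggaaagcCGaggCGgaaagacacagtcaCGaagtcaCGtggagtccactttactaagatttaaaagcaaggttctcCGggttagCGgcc
The Ptgs1 window holds 9 CpG dinucleotides and the Ptgs2 window 10, against a median of 5 over the same window of 33469 RefSeq start sites. Of those windows, 61.5% hold fewer CpG than that of Ptgs1 and 64.1% fewer than that of Ptgs2. GC content was 54.4% for Ptgs1 and 57.2% for Ptgs2, with a median of 51.2%. The ratio of observed to expected CpG was 0.523 and 0.533, so the windows were alike on this measure. Methylation itself was not measured in these libraries.

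Motifs of 6 kinds were searched on both strands of these windows, each spelled out where it is described here. The Ptgs1 window held none of them. In the Ptgs2 window the 6 letters TTTAAA begin at -31 from the start site, and 12.3% of all windows hold it. CACGTG, an E-box, begins at -55 and is in 5.59% of all windows. TTNNGNAA, the core that C/EBP factors bind, begins at -140 and is in 37.2%, and GGGCGG, a GC box, begins at -238 and is in 30.5%. These matches share no base with one another and describe the letters only. The classical promoter box, spelled TATAAA and present in 12.9% of all windows, was in neither. Nor was the cyclic AMP response half-site, spelled TGACG and present in 18.2%. In the same annotation no listed gene overlaps Ptgs1 or Ptgs2. The neighbour before Ptgs2 is the long non-coding RNA Ptgs2os, and the nearest protein-coding gene on that side is Pla2g4a, which encodes the phospholipase that releases arachidonic acid.

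Both genes were expressed at low level. Values are RPKM, reads divided by gene model length in kilobases and by library size, as deposited, and the reads behind them were recovered from the steps of the values. The library sizes behind the RPKM, inferred from the same steps as the smallest whole numbers that fit, ran from 15851731 to 30475130 reads. On the first principal component of all tested genes, zebularine female replicate 3 lay at 50.4 and the other 11 libraries between -11.6 and 9.49, so that it stood apart. The main differences, levels and correlations that use it are also given without it, and the others are given only with it. Because the files carry no gene symbols, neither the tissue nor the sex labels could be checked against marker genes.

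Ptgs1, the constitutive enzyme, was read 61 to 148 times per library on a gene model of 2784 bases, and its mean over 12 libraries was 1.31 RPKM. That mean lay above 41.0% of the genes detected in any library. Ptgs2, the inducible enzyme, was read 14 to 32 times per library on a model of 2811 bases, with a mean of 0.345 RPKM, above 30.2% of detected genes. Every library held more Ptgs2 reads than the 3 that mark the lowest level told from 0, which correspond to between 0.0350 and 0.0673 RPKM for this gene, for counting error only. In a bulk tissue such as this, fewer cells that express a gene and less RNA per cell cannot be told apart.

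In vehicle females Ptgs1 stood at 1.03, 1.09 and 1.07 RPKM. In zebularine females it stood at 1.52, 1.35 and 1.93 RPKM. The vehicle female libraries were close together and every zebularine female library lay above them. In vehicle males the values were 1.15, 1.32 and 0.888 RPKM, and in zebularine males 1.74, 1.38 and 1.23 RPKM. In males 2 of the 3 treated libraries lay above all vehicle libraries, and the groups overlapped. By mean the order was zebularine females, 1.60 ± 0.299, zebularine males, 1.45 ± 0.265, vehicle males, 1.12 ± 0.218, and vehicle females, 1.06 ± 0.0280 RPKM (SD, n = 3 each). Neighbours in that order had overlapping ranges. Without replicate 3 the zebularine female mean was 1.44 RPKM (n = 2), next to the 1.45 of zebularine males.

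In vehicle females Ptgs2 stood at 0.433, 0.393 and 0.363 RPKM. In zebularine females it stood at 0.234, 0.236 and 0.483 RPKM. Of the treated females, 2 lay below every vehicle female and 1, replicate 3, lay above them all. In vehicle males the values were 0.247, 0.256 and 0.380 RPKM, and in zebularine males 0.362, 0.382 and 0.372 RPKM. The treated male libraries were tightly grouped, within the upper part of the vehicle male range or just above it. By mean the order was vehicle females, 0.397 ± 0.0354, zebularine males, 0.372 ± 0.00982, zebularine females, 0.317 ± 0.143, and vehicle males, 0.295 ± 0.0744 RPKM (SD, n = 3 each). Neighbours in that order had overlapping ranges. Without replicate 3 the zebularine female mean was 0.235 RPKM (n = 2), the lowest of the 4 groups.

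**Figure D1:**
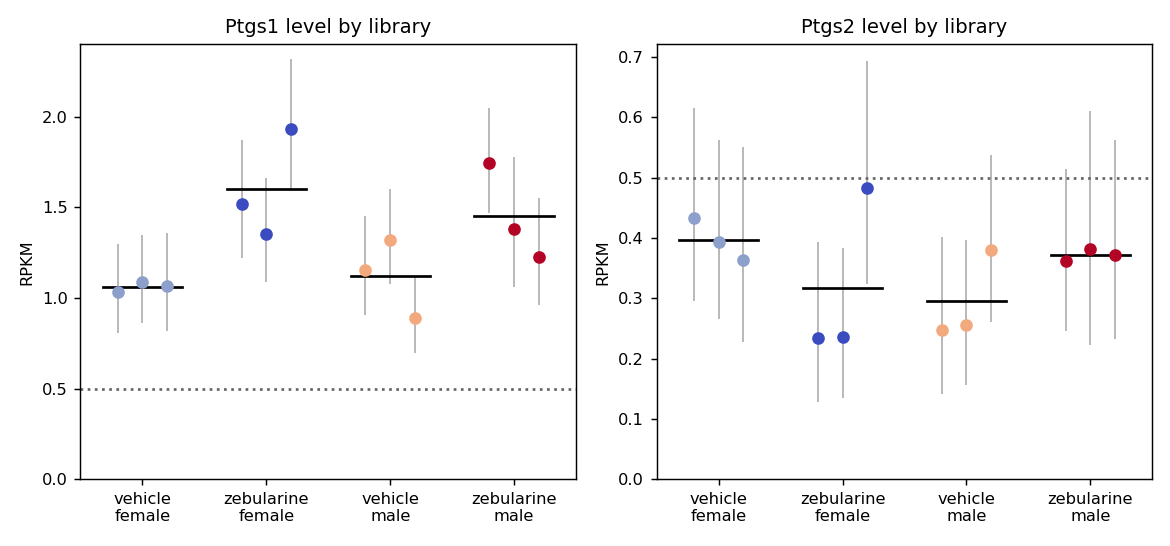
Level of Ptgs1 (left) and Ptgs2 (right) in RPKM for each library, in order of replicate within the 4 groups; grey bars are exact Poisson 95% intervals of the reads, black lines are group means, and the dotted line marks 0.5 RPKM. Zebularine females lie at 1.35 to 1.93 RPKM of Ptgs1 and vehicle females at 1.03 to 1.09 RPKM, while every Ptgs2 library lies under 0.5 RPKM.

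Counting alone leaves wide intervals for Ptgs2. The 14 reads of zebularine female replicate 1 give an exact Poisson 95% interval of 0.128 to 0.393 RPKM, and the 29 reads of replicate 3 in that group one of 0.323 to 0.693 RPKM. For Ptgs1 the 61 reads of zebularine male replicate 2, the shallowest library, give 1.06 to 1.78 RPKM. Within groups, the chi-square per degree of freedom of the reads was 1.42 for Ptgs2, where counting alone gives about 1, and 2.57 for Ptgs1. These were 0.48 and 2.03 without zebularine female replicate 3. Over genes within 1.3-fold in mean reads, the median was 1.98 for the 739 genes near Ptgs2 and 3.10 for the 970 genes near Ptgs1. Of these, 32.1% and 41.3% had less scatter than Ptgs2 and Ptgs1.

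Zebularine was first compared with vehicle over both sexes, 6 libraries against 6. Ptgs1 averaged 1.53 ± 0.265 RPKM in zebularine and 1.09 ± 0.143 RPKM in vehicle libraries (SD, n = 6), a ratio of means of 1.40. On the log2(RPKM + 0.5) scale, where the added constant shrinks the changes of weakly expressed genes, the difference was 0.34 ± 0.11 (SE), with a 95% interval of 0.10 to 0.59. It did not pass over the 16310 genes tested (limma adjusted p = 0.477, unadjusted p = 0.00956), a comparison in which 0.405% of tested genes were called and 0.399% were called higher. An exact permutation test of Ptgs1 alone, with labels exchanged within each sex, gave a two-sided p of 0.01, where 400 assignments allow no p under 0.005. That p is for 1 gene chosen with earlier results of these data known and carries no adjustment. By unadjusted p, 4.78% of tested genes were under 0.05 and higher, and Ptgs1 held rank 327 of all tested genes by p. Without zebularine female replicate 3 the ratio of means was 1.32 and the log2 difference 0.29, with a 95% interval of 0.052 to 0.53 (limma adjusted p = 0.808, against 0.338 to 0.999 over all alternatives).

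Among genes expressed like Ptgs1 the difference was moderate. Of the 1150 tested genes whose mean lay within 1.3-fold of that of Ptgs1, 110, or 9.57%, had a larger upward difference and 15, or 1.3%, were called. With zebularine female replicate 3 left out, 121 of 1154 such genes, or 10.5%, had a larger upward difference. With all 12 libraries, the median difference of the 1150 genes was 0.033 on the log2 scale, and that of all tested genes 0.0051. The 65 genes called higher had a median of 0.87, and 1 of them had a smaller difference than Ptgs1. The residual SD of Ptgs1, 0.171 on the log2 scale, was smaller than that of 74.4% of the 500 genes nearest to it in mean level.

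**Figure D2:**
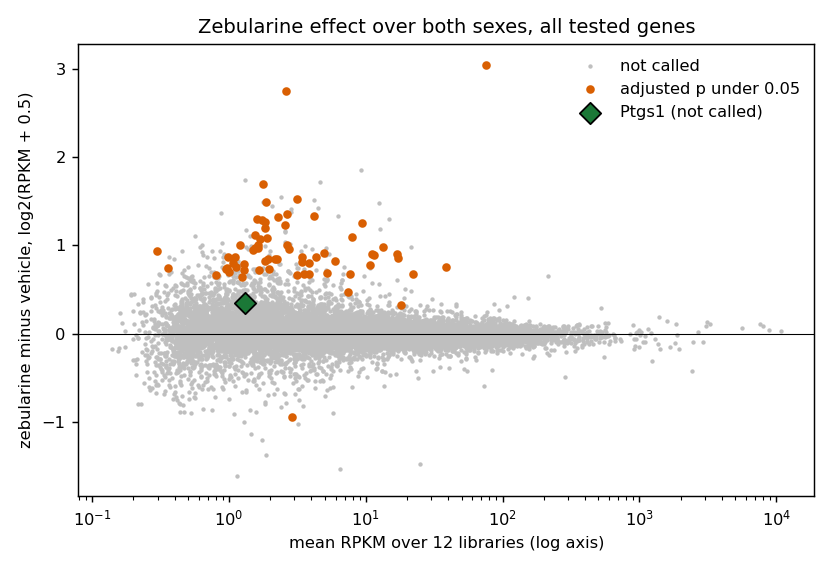
Zebularine minus vehicle difference over both sexes on the log2(RPKM + 0.5) scale against the mean RPKM over 12 libraries on a log axis, for the 16310 tested genes, with called genes in orange. Ptgs1, the diamond at 1.31 RPKM and 0.34, lies in the upper part of the uncalled genes at its level.

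Ptgs2 was under 0.5 RPKM in every library and so did not enter the test above, which asks for at least 0.5 RPKM in 3 libraries. Fitted without that filter, over 23427 genes, it averaged 0.345 ± 0.0955 RPKM under zebularine and 0.346 ± 0.0764 RPKM under vehicle (SD, n = 6). The log2 difference was -0.0046 ± 0.084 (SE), with a 95% interval of -0.19 to 0.18 (limma adjusted p = 0.995), where 0.252% of genes were called. The exact permutation test within sexes gave a p of 0.935. The log2 difference without zebularine female replicate 3 was -0.074 (limma adjusted p = 0.925, against 0.887 to 1.00 over all alternatives). On the scale of reads, by limma-voom, the 95% interval of the fold ran from 0.710 to 1.34, and from 0.650 to 1.17 without zebularine female replicate 3. The same fit put the Ptgs1 fold at 1.41, with an interval of 1.13 to 1.75 (limma-voom adjusted p = 0.341), and at 1.34 without that library (limma-voom adjusted p = 0.612).

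Females and males were then examined separately. In females the Ptgs1 difference was 0.42 ± 0.16 (SE) on the log2 scale, a ratio of means of 1.51, and did not pass (limma adjusted p = 0.728, with 0.0429% of tested genes called). The 3 treated females lay above the 3 vehicle females without overlap, as did 5.87% of all tested genes. Without zebularine female replicate 3, whose 1.93 RPKM was the top Ptgs1 value of the 12 libraries, the difference was 0.31, with a 95% interval of -0.043 to 0.66 that includes 0 (limma adjusted p = 1.00, against 0.557 to 1.00 over all alternatives), and the ratio of means 1.35. In males it was 0.27 ± 0.16 (SE), a ratio of means of 1.29 (limma adjusted p = 0.669). The male value was 0.16 without vehicle male replicate 3, and also 0.16 without zebularine male replicate 1. With all 12 libraries no gene was called in males by limma or by limma-voom (a share of 0%), while 7.58% had an unadjusted limma p under 0.05. Without zebularine female replicate 3, which enters only the shared estimate of spread, 15 of 16204 genes were called in males by limma and 27 by limma-voom. The 95% interval of Ptgs1 in males was then -0.047 to 0.58 by limma. By limma-voom its fold was 1.34, with an interval of 1.01 to 1.77 (limma-voom adjusted p = 0.552). With 3 libraries against 3, an exact permutation test cannot go below 0.1, and gave that value for Ptgs1 in females and 0.2 in males.

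Ptgs2 differed in sign between the sexes, though neither difference passed. In females its log2 difference was -0.15 ± 0.12 (SE), a ratio of means of 0.80 (limma adjusted p = 0.974, with 0.0256% of genes called). In males it was 0.14 ± 0.12 (SE), a ratio of means of 1.26 (limma adjusted p = 0.836). The added constant shrinks both values. By limma-voom on reads the log2 difference was -0.41 in females, with a 95% interval of -1.06 to 0.25. In males the limma-voom value was 0.34, with an interval of -0.31 to 0.99. Zebularine female replicate 3, at 0.483 RPKM the top Ptgs2 value of the 12 libraries, lay opposite to the others of its group. Without it the remaining treated females, at 0.234 and 0.236 RPKM, lay below all vehicle females and the log2 difference was -0.29, with a 95% interval of -0.49 to -0.082 (limma adjusted p = 0.746, against 0.746 to 1.00 over all alternatives). Those 2 libraries held 14 and 16 Ptgs2 reads. The within-group chi-square per degree of freedom was then 0.48, where counting alone gives about 1, so this interval may be too narrow. Without replicate 1 or replicate 2 of zebularine females the log2 difference was -0.076 and -0.078.

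Whether the sexes responded differently was tested as the male minus the female zebularine effect. For Ptgs1 this was -0.15 ± 0.22 (SE), with a 95% interval of -0.64 to 0.33 (limma adjusted p = 0.976), and no gene was called, a share of 0%, by limma or by limma-voom, with 4.05% of genes at an unadjusted limma p under 0.05. The Ptgs1 value was -0.041 without zebularine female replicate 3, -0.063 without vehicle male replicate 2 and -0.068 without zebularine male replicate 3. It was -0.24 without zebularine female replicate 2 and -0.26 without either vehicle male replicate 3 or zebularine male replicate 1 (limma adjusted p = 0.881 to 1.00 over all alternatives). For Ptgs2 the male minus female effect was 0.28 ± 0.17 (SE), with a 95% interval of -0.091 to 0.66 (limma adjusted p = 0.945, with 0.00854% of genes called without the filter). The added constant of 0.5 exceeds the Ptgs2 mean of 0.345 RPKM and shrinks this value. By limma-voom on reads it was 0.74, with a 95% interval of -0.175 to 1.665. The Ptgs2 value without zebularine female replicate 3 was 0.42, with a 95% interval of 0.15 to 0.70 that lies above 0 (limma adjusted p = 0.841, against 0.841 to 0.998 over all alternatives). By limma-voom on reads this value was 1.07, with a 95% interval of 0.23 to 1.92. Without that library the chi-square per degree of freedom of the Ptgs2 reads was 0.48, where counting alone gives about 1. The limma interval may therefore be too narrow. With all libraries the intervals include 0 and also differences larger than those measured, and no adjusted p was under 0.05, so a sex difference in response was neither detected nor shown to be absent for either gene.

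The sexes were compared under each treatment, since prostaglandin synthesis in this region is known to be higher in newborn males. Under vehicle, Ptgs1 differed between males and females by 0.046 ± 0.16 (SE) on the log2 scale (limma adjusted p = 1.00, with 0.0123% of tested genes called). Ptgs2 was lower in vehicle males by mean, at a male to female ratio of 0.743, and the log2 difference of -0.18 ± 0.12 (SE) did not pass (limma adjusted p = 1.00, with 0.0213% of genes called). Of the vehicle males, 2 lay below every vehicle female and the third, at 0.380 RPKM, lay among them. The 95% interval of the male to female fold of Ptgs2, on the scale of reads by limma-voom, ran from 0.477 to 1.15. A Ptgs2 RNA level in vehicle males above 1.15 times that in females therefore lies outside the interval. It rests on 16 to 32 reads per library in vehicle males and 22 to 31 in vehicle females, and is not adjusted over genes. Neither cyclooxygenase protein nor prostaglandins were measured in these libraries, so the interval does not address prostaglandin synthesis.

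Under zebularine, the male minus female difference was -0.11 ± 0.16 (SE) for Ptgs1 (limma adjusted p = 0.827, with 0.0307% of tested genes called) and 0.11 ± 0.12 (SE) for Ptgs2 (limma adjusted p = 0.798, with 0.0213% of genes called). Without zebularine female replicate 3 these were 0.0047 for Ptgs1 and 0.25 for Ptgs2, the latter with a 95% interval of 0.042 to 0.45 (limma adjusted p = 0.993 and 0.496, against 0.595 to 0.993 and 0.496 to 1.00 over all alternatives). By limma-voom on reads, the male to female fold of Ptgs2 without that library had a 95% interval of 0.987 to 2.461. That interval includes equal levels. The zebularine females were compared with the vehicle males as well. Ptgs1 was 1.43 times as high in treated females by mean, without overlap, as were 7.65% of tested genes. The log2 difference of 0.37 ± 0.16 (SE) did not pass (limma adjusted p = 0.679, with 0.110% of tested genes called). Without zebularine female replicate 3 the ratio of means was 1.28 and the log2 difference 0.26, with a 95% interval of -0.089 to 0.62 that includes 0 (limma adjusted p = 1.00, against 0.466 to 1.00 over all alternatives). Ptgs2 differed by 0.031 ± 0.12 (SE) in that comparison (limma adjusted p = 1.00, with 0.0640% of genes called), and by -0.11 without zebularine female replicate 3 (limma adjusted p = 1.00, against 0.946 to 1.00 over all alternatives). Several of these comparisons share libraries, so their values are not independent of one another.

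**Figure D3:**
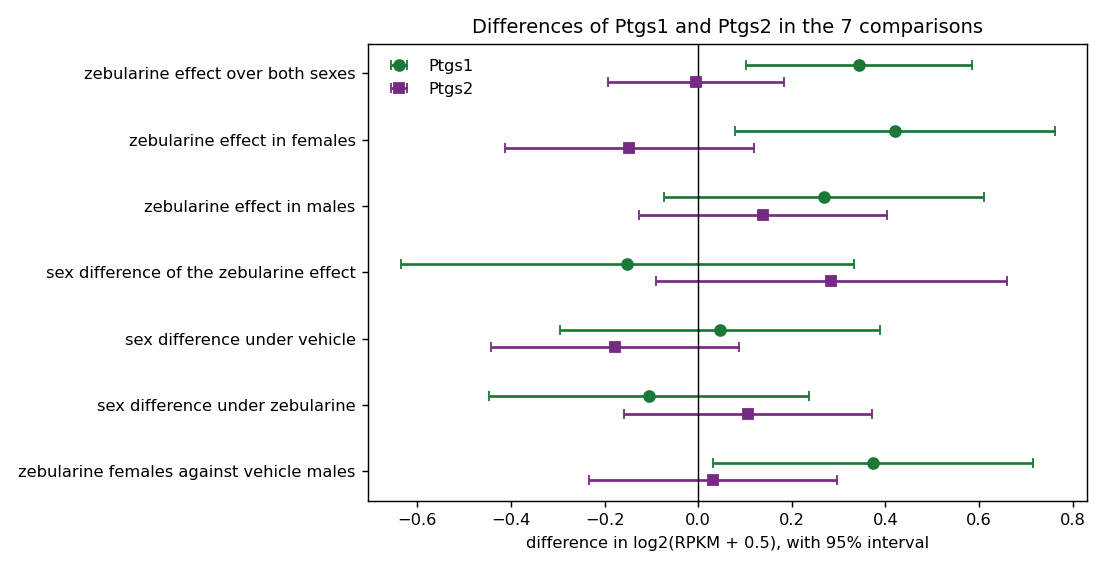
Differences of Ptgs1 (circles) and Ptgs2 (squares) on the log2(RPKM + 0.5) scale in the 7 comparisons, with 95% intervals from limma over all 12 libraries; sex differences are male minus female. The Ptgs1 interval lies above 0 over both sexes, in females and for zebularine females against vehicle males, without passing over all genes, and every Ptgs2 interval includes 0. Without zebularine female replicate 3, the Ptgs1 interval lies above 0 over both sexes but includes 0 in the other 2. Without that library the limma intervals of Ptgs2 in females, between the sexes under zebularine and for the sex difference of the effect exclude 0. The Ptgs2 reads then scattered less within groups than counting alone gives (chi-square per degree of freedom 0.48). By limma-voom on reads, the Ptgs2 interval between the sexes under zebularine includes 0 and the other 2 exclude 0. The limma-voom interval of Ptgs1 in males without that library lies above 0.

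**Figure D4:**
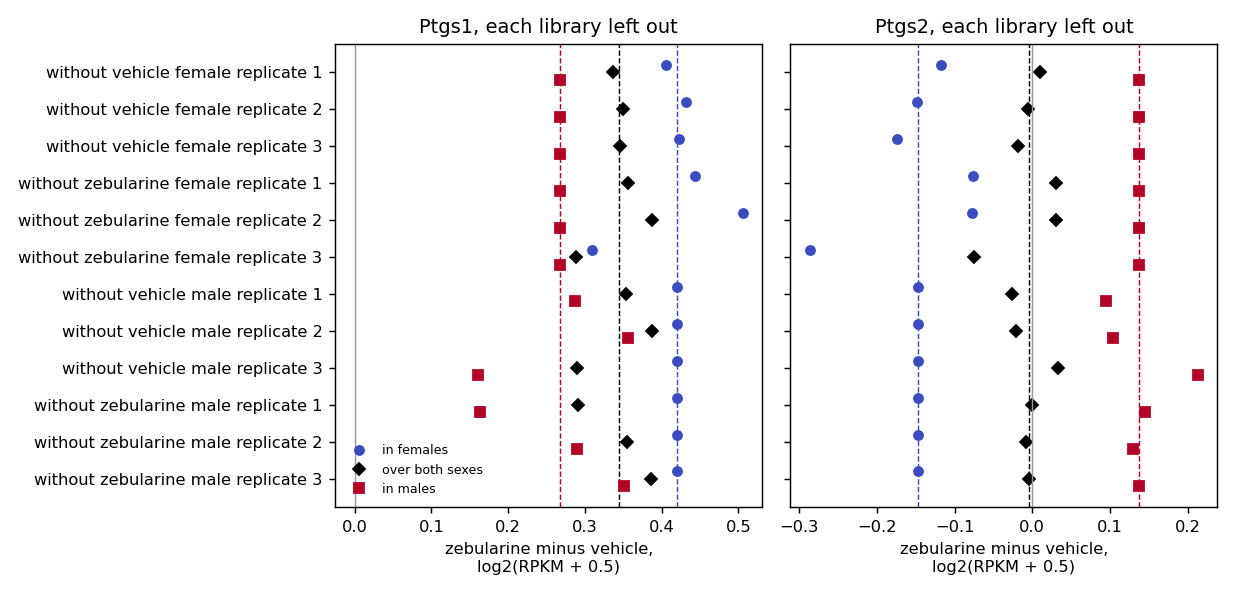
Zebularine minus vehicle difference on the log2(RPKM + 0.5) scale with each library left out, for Ptgs1 (left) and Ptgs2 (right), in females, in males and over both sexes; dashed lines mark the values with all libraries. Ptgs1 stays above 0 in these fits, between 0.29 and 0.39 over both sexes, and Ptgs2 over both sexes lies between -0.074 and 0.033.

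Because RPKM is per length, both enzymes can be set against each other within a library. Ptgs1 was the more abundant in each of the 12 libraries, from 2.33 to 6.49 times the RPKM of Ptgs2 with a mean ratio of 4.02 ± 1.36 (SD, n = 12). In vehicle females the ratio was 2.38, 2.76 and 2.94, and in zebularine females 6.49, 5.74 and 4.0. In vehicle males it was 4.67, 5.15 and 2.33, and in zebularine males 4.82, 3.62 and 3.30. The ratio was thus higher in every treated female than in every vehicle female, and overlapped in males. By exact permutation, the log2 ratio with 0.5 added to each RPKM gave a p of 0.1 in females and 0.7 in males. With 3 libraries against 3, such a test allows no p under 0.1. Ptgs1, which enters the ratio, also lay without overlap in females, as did 5.87% of all tested genes. No such share was computed for the ratio.

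Over both sexes the log2 ratio, with 0.5 added to each RPKM, was 0.35 higher under zebularine (two-sided exact permutation test within sexes, p = 0.0350). The difference was 0.57 in females and 0.13 in males. The difference over both sexes without zebularine female replicate 3 was 0.36 (exact permutation p = 0.0550). In females both a higher Ptgs1 and, in 2 of 3 libraries, a lower Ptgs2 entered the ratio. The p was 0.0600 with a pseudocount of 0.1. With 1 library left out it lay from 0.0250 to 0.0700, and was over 0.05 without each female library, without vehicle male replicate 3 and without zebularine male replicate 1. Leaving out a library leaves fewer assignments than the 400 of the full test, so these p-values move in coarser steps.

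**Figure D5:**
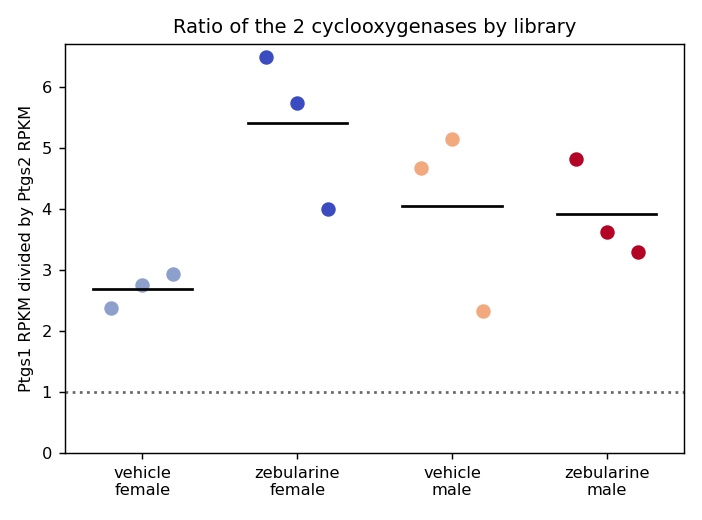
Ptgs1 RPKM divided by Ptgs2 RPKM in each library, in order of replicate, with group means as black lines and equality as a dotted line at 1. Each library lies above 1, and zebularine females, at 4.0 to 6.49, lie above vehicle females, at 2.38 to 2.94.

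Ptgs1 and Ptgs2 were not correlated beyond the permutation test's threshold of 0.05 across the 12 libraries, with Pearson r = 0.012 (permutation p = 0.970) and Spearman rho = -0.20 (permutation p = 0.541). Without the 2 libraries farthest from the Ptgs1 median, r was -0.35 (permutation p = 0.323) and rho -0.55 (permutation p = 0.105, n = 10). With zebularine female replicate 3 left out, r was -0.41 (permutation p = 0.218) and rho -0.55 (permutation p = 0.0821, n = 11). No p was adjusted over these 6 correlations. For deviations from the group means r was 0.20.

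The genes most like each enzyme across the 12 libraries were found among genes with a mean of at least 1 RPKM, as a description, since all values share the same libraries and depths. For Ptgs1 they were ENSRNOG00000008180 and ENSRNOG00000023334, each at r = 0.93, and at 0.90 and 0.87 for deviations from the group means. With zebularine female replicate 3 left out, r was 0.90 and 0.89. ENSRNOG00000008180 averaged 3.78 and 6.06 RPKM in vehicle and zebularine females and 3.45 and 4.76 RPKM in vehicle and zebularine males. ENSRNOG00000023334 averaged 1.31 and 2.36 RPKM in vehicle and zebularine females and 1.15 and 1.93 RPKM in the corresponding males. Without zebularine female replicate 3 the zebularine female means of these genes were 5.14 and 1.82 RPKM, the latter below that of zebularine males. Their group means follow from the choice by likeness to Ptgs1 and are given as a description. For Ptgs2 the most alike was ENSRNOG00000001199, at r = 0.86 (0.83 without zebularine female replicate 3) and a mean of 7.90 RPKM, with 8.42 and 7.70 RPKM in vehicle and zebularine females and 7.37 and 8.09 RPKM in the males. Its zebularine female mean was 7.12 RPKM without zebularine female replicate 3. The next, ENSRNOG00000036230 at r = 0.84 (0.90 without that library), rested on 0 to 6 reads per library.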

How the data were processed

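RNA-seq was made from 12 libraries of rat preoptic area, grouped by sample title. The authors deposited RPKM for 29516 Ensembl identifiers per library. TopHat is named in the submitters' processing notes; the sources used here do not give the counter, genome build, annotation or strand setting. RPKM steps gave whole reads within 0.01 read for 99.99% of 23427 genes above 0.

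Genes at 0.5 RPKM or more in at least 3 libraries (16310) were fitted with limma 3.58.1 (R 4.3.3, trended eBayes) on log2(RPKM + 0.5) as 4 group means. Each of 7 comparisons was tested on both sides and adjusted over all tested genes by Benjamini-Hochberg, with calls at 0.05. The filter removed Ptgs2, which was fitted over 23427 genes without it. Single values were tested by exact permutation (Python 3.11.15). The fit was tested on simulated data. The members, lists and tests were chosen with earlier results of these data known. The rule for named genes took both members and the 2 genes most correlated with each. The name table (RefSeq, GRCr8) matched 0 identifiers, so the symbols follow the rule that chose the members, and the prostaglandin pathway and marker lists, set by symbol, are not analysed here. Alternatives were other pseudocounts, scalings, filters, array weights, blocks on replicate or file-name number, fits of the compared groups alone, limma-voom on recovered reads, each library left out, and, added after seeing the data, a filter of 10 reads in 3 libraries and levels, correlations and limma-voom without zebularine female replicate 3.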

Additional observations from a re-analysis of the deposited data

How the results depend on the processing

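Over 318 refits of the 14 limma comparisons of Ptgs1 and Ptgs2, 0 gave an adjusted p under 0.05 (lowest 0.338). Differences near 0 changed sign. Without 1 library each, Ptgs1 ranged from -0.042 to 0.15 between the sexes under vehicle and from -0.21 to 0.0047 under zebularine. Ptgs2 over both sexes ranged from -0.074 to 0.033, in limma and in the exact test, and for zebularine females against vehicle males from -0.11 to 0.11; the latter was -0.027 with quantile normalization and -0.058 with array weights. The cause was not tested. The difference in log2 ratio of Ptgs1 to Ptgs2 between zebularine and vehicle, 0.35, was 0.26 to 0.41 without 1 library each (exact permutation p = 0.0250 to 0.0700) and 0.46 with a pseudocount of 0.1 (exact permutation p = 0.0600). The mean log2 ratio, 1.09, was 1.66 and 0.77 with pseudocounts of 0.1 and 1, which enter it directly. With a replicate block on the title numbers, Ptgs1 over both sexes kept 0.34 (limma adjusted p = 0.586) and the count of called genes went from 66 to 9. Over all 18 pairs with the same title number, the correlation of deviations ran from -0.298 to 0.295 and was over 0.1 in 5. Of the 12 libraries, 4 correlated best with their own title number. For file-name numbers, 2 of 12 pairs were over 0.1 and 3 of 12 libraries correlated best with their own number. Neither set of numbers was therefore taken as pairs. The block on file-name numbers gave 0.31 ± 0.15 (SE) for Ptgs1 over both sexes (limma unadjusted p = 0.0752, adjusted p = 0.999), an interval that includes 0, and 6 called genes. File-name numbers 1 and 2 occur only for vehicle male replicate 1 and zebularine female replicate 1. That block therefore takes up both libraries, which then add nothing to the estimate. Over the alternatives of the Ptgs1 fits, leaving aside limma-voom without zebularine female replicate 3, counts of called genes ran from 6 to 111 over both sexes, 0 to 56 in females, 0 to 15 in males, 1 to 17 between the sexes under zebularine, 1 to 5 under vehicle, 0 to 2 for the sex difference in response and 2 to 105 for zebularine females against vehicle males, where the full fits gave 66, 7, 0, 5, 2, 0 and 18. Limma-voom without that library called 27 genes in males with the 0.5 RPKM filter and 29 with no filter. Over both sexes it called 102 and 120. Depth limits the precision of Ptgs2, at 14 to 32 reads per library, as does the scatter between 3 libraries a group.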
